A study of Mus musculus with 12 samples.

Results

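Genes that mark eosinophils, 10 in all, were followed in a mouse acute myeloid leukemia in which the transcription factor PU.1 was given back. They are the granule protein genes Epx, Prg2, Prg3, Ear1, Ear2 and Ear6, the surface receptor genes Siglecf, Ccr3 and Il5ra, and the lipid-oxidising enzyme gene Alox15. The genes were listed by name, and they were picked for their level in each of the 12 libraries and for how far they moved together within and between days. Those levels and that agreement are therefore given as a description. Where calls of a fit over all genes are given for them, they are descriptions too, printed beside the share of all genes called, and support nothing. All 10 genes were found among 27179 counted genes, and 9 were among the 12057 genes with enough counts for a test. Il5ra was not.

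The leukemia, AML246, is cytogenetically normal, p53-/- and on a C57BL/6 background, and it carries shPU.1, a hairpin against PU.1 linked to a GFP marker. Doxycycline (Dox) given to leukemic mice shuts the hairpin off, and endogenous PU.1 (gene Spi1) returns over days. RNA was sequenced in bulk from GFP-sorted bone marrow cells of leukemic recipients, 3 libraries each for untreated mice (gate GFPhigh), 2 days of Dox (GFPhigh-mid), 4 days (GFPmid) and 6 days (GFPlow). All 4 groups share the p53-/- genotype, the hairpin and the 1 leukemia AML246. Gate and days on Dox moved together and cannot be told apart, nor can an effect of Dox itself from that of PU.1 return. No age is given for the mice. The labels are not of one mind on the replicates: "technical" stands in each title, and the design text names 3 mice per arm. What the p-values measure is thus the scatter of these samples alone, possibly a technical one.

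Eosinophils are granulocytes of the marrow whose precursors are defined by the receptor for interleukin 5. Their granules are packed with cationic proteins: a peroxidase, major basic proteins, and ribonucleases that have multiplied in the mouse into the Ear gene family. PU.1, C/EBP proteins and GATA factors act together on several granule genes, and the balance between PU.1 and GATA factors is a known theme of the choice between neutrophil, macrophage and eosinophil fates.

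The promoters of 3 ribonuclease genes and of Siglecf are printed because Ear1 and Ear2 are near-identical there and yet took different courses below, while Siglecf shared the late course of Ear2. They are from RefSeq (build GRCm38.p6) and give the 250 bases before the start of the gene, 5′ to 3′ on the strand of the gene. Capitals mark the letters of an ETS core (the word GAGGAA or else the word AGGAAG on either strand, which can overlap each other), the site type that PU.1 and its relatives bind, and of a C/EBP word (TTGCNNAA on either strand). The windows are chr14:43819640-43819889 on the minus strand for Ear1, chr14:44102404-44102653 on the plus strand for Ear2, chr14:51853518-51853767 on the plus strand for Ear6 and chr7:43351091-43351340 on the plus strand for Siglecf.
Ear1: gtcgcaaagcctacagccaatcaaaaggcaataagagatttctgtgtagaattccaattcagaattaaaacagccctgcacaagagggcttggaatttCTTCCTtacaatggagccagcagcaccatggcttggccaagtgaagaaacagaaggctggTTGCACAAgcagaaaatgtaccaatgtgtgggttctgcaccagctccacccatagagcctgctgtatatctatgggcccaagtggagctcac
Ear2: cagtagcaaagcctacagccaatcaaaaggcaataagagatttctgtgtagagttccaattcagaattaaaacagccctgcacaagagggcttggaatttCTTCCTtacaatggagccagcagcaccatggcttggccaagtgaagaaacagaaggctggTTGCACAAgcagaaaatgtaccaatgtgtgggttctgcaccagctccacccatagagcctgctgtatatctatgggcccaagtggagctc
Ear6: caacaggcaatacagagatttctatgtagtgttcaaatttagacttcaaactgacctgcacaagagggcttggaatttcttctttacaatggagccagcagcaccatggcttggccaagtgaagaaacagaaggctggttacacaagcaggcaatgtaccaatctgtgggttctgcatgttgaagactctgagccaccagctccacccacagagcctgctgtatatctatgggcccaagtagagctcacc
Siglecf: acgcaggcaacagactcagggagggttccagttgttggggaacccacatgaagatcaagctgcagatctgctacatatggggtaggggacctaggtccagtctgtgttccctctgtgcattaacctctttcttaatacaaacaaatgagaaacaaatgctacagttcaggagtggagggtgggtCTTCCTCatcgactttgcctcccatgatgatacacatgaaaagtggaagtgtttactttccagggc
The Ear1 and Ear2 windows were 97.6% identical over 252 aligned columns, with 2 mismatches and 4 gap columns, and both held 1 ETS core word and 1 C/EBP word. In Ear1 the C/EBP word lay 92 to 85 bases before the start, and in Ear2 it lay 90 to 83 bases before it. The Ear6 window was 78.2% identical to that of Ear1 and 77.3% identical to that of Ear2, and held neither word. RefSeq promoters were matched for 8 of the 10 genes. The window of Ccr3 (chr9:124021721-124021970) lay inside the gene span given below. That of Prg3 (chr2:84987965-84988214) reached past the first base of its span. An ETS core word stood in 5 of the 8 (Prg3, Ear1, Ear2, Siglecf and Ccr3) and in 39.0% of all 27025 mouse promoters of the same length. A GATA word (the word AGATAA, the word AGATAG, the word TGATAA or the word TGATAG on either strand) stood in 3 of the 8 (Prg3, Ccr3 and Il5ra) and in 27.1% of all, and the C/EBP word stood in 2 of the 8 and in 9.55% of all. A match is a description of letters, not of binding.

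Libraries held 4918920 to 7356166 counts. Taken as a rough upper bound behind a count of 0, 3 counts correspond to 0.408 to 0.610 CPM of the library total. This bound covers counting error only, and a higher level can still give a count of 0. CPM is the count divided by the library size and put on a per-million scale, here with the size scaled by TMM, a factor that evens out library composition. Spi1 itself rose from 62.5 ± 7.29 CPM (SD, n = 3) in untreated cells to 260.1 ± 14.1 CPM at day 4 and 458 ± 33.9 CPM at day 6 (edgeR quasi-likelihood adjusted p = 1.28e-07 and 2.79e-09). Myeloid blast genes were high in untreated cells, with Mpo, the peroxidase of myeloid blasts, at 18038 ± 1186 CPM. Day 6 replicate 2 stood apart: its counts differed from those of the other day 6 libraries with 44.1 and 38.3 times the variance of counting error, against 2.62 to 10.5 times between replicates elsewhere. It had 78.0 CPM of C1qa, a macrophage gene, against 10.45 and 9.18 CPM in replicates 1 and 3, and 18 counts of Cd3d, a T cell gene, against at most 1 count in each other library; both genes were picked after their values were seen.

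The major basic protein gene Prg2 (ID 19074, chr2:84980461-84983632) was the most strongly expressed of the granule genes per transcript length at day 4. It stood at 10.6, 21.3 and 15.8 CPM in untreated replicates 1, 2 and 3, at 5.77, 27.6 and 64.5 CPM at day 2, at 35.3, 676 and 383 CPM at day 4 and at 48.0, 16.4 and 35.3 CPM at day 6. The day 4 libraries all lay above the untreated ones, but replicate 1 lay 19.2-fold below replicate 2 and inside the range of day 6. Untreated cells averaged 15.9 ± 5.33 CPM and day 4 cells 365 ± 321 CPM (SD, n = 3), a log2 fold change of 4.52 ± 1.04 (SE). In bulk RNA, a change in the number of cells that carry these transcripts and a change in the transcripts per cell cannot be told apart.

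Prg3 (ID 53856, chr2:84988196-84996559), which encodes the second major basic protein and lies next to Prg2, had the same course at a lower level. It stood at 0.567, 2.09 and 1.58 CPM in untreated replicates 1, 2 and 3, at 0.152, 2.75 and 10.7 CPM at day 2, at 2.25, 56.6 and 27.0 CPM at day 4 and at 3.20, 1.77 and 3.32 CPM at day 6. Replicates 2 and 3 of day 4 were the highest of the 12 libraries, and replicate 1 of day 4 fell among the day 6 values. Per length the ratio of the group means of Prg2 and Prg3 was 12.8 in untreated cells, 8.12 at day 2, 14.4 at day 4 and 13.6 at day 6. This ratio of means stayed between 8.12 and 14.4 while the mean level of Prg3 moved 20.3-fold. The highest libraries weigh most in such means. Ratios within single libraries are not given, and Prg3 had only 1 count in day 2 replicate 1. The log2 fold change of Prg3 at day 4 was 4.32 ± 1.18 (SE).

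Epx (ID 13861, chr11:87863997-87875536) encodes eosinophil peroxidase, which makes hypohalous acids from halides and hydrogen peroxide. It stood at 5.25, 19.91 and 19.1 CPM in untreated replicates 1, 2 and 3, at 1.67, 19.95 and 87.2 CPM at day 2, at 8.55, 138 and 61.8 CPM at day 4 and at 3.84, 2.73 and 3.51 CPM at day 6. It was the only member already above 5 CPM in every untreated library beside Prg2, and the only tested member whose day 6 libraries all lay below all untreated ones. Its spread was wide at day 2, where replicates 1 and 3 differed 52.2-fold, and small at day 6, where 18, 17 and 18 counts were found. The log2 fold change was 2.23 ± 1.09 at day 4 and -2.15 ± 1.48 at day 6 (SE), and neither was called at an edgeR adjusted p under 0.05. With only the untreated and day 6 libraries in the fit, the day 6 change of -2.17 was called.

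Of the other heme peroxidases and primary granule proteins, 8 were found and 7 tested. At day 4, 1 rose and 3 fell. At day 6, 1 rose and 6 fell. Their median log2 fold change was then -1.29, where the median over all 12057 tested genes was -0.00029. Of all tested genes 22.1% rose and 20.2% fell at day 4, and 35.0% rose and 32.9% fell at day 6, and the count of each gene list is to be read beside these shares. Mpo, the myeloid peroxidase closest to Epx in kind, fell by 1.17 ± 0.15 on the log2 scale at day 4 (edgeR adjusted p = 7.03e-05) and by 2.11 ± 0.15 at day 6 (1.86e-07). Lpo, lactoperoxidase, had 4.81 ± 0.685 CPM in untreated cells and fell by 2.22 ± 0.52 at day 6 (edgeR adjusted p = 0.00215). Ms4a3, a gene of granulocyte and monocyte progenitors, was the 1 that rose (log2 fold change 2.01 ± 0.54 at day 4, edgeR adjusted p = 0.0127, and 2.89 ± 0.55 at day 6, 0.000866). Its day 4 call was lost with only the 2 groups in the fit. Epx and Mpo transcripts are 56.0% identical and share no run of 50 bases.

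The ribonuclease genes Ear1, Ear2 and Ear6 encode small secreted ribonucleases of the eosinophil granule. Ear1 (ID 13586, chr14:43818765-43819639) stood at 1.84, 1.81 and 2.01 CPM in untreated replicates 1, 2 and 3, at 0.456, 4.76 and 2.36 CPM at day 2, at 2.85, 37.8 and 16.0 CPM at day 4 and at 3.20, 0.321 and 5.08 CPM at day 6. Ear6 (ID 93719, chr14:51853768-51854643) stood at 1.13, 4.45 and 5.46 CPM in untreated cells, at 1.52, 7.50 and 24.2 CPM at day 2, at 3.90, 127 and 59.6 CPM at day 4 and at 22.4, 9.001 and 16.98 CPM at day 6. In both genes only replicates 2 and 3 of day 4 stood above all other days. The log2 fold change at day 4 was 3.31 ± 0.95 for Ear1 and 4.11 ± 1.16 for Ear6 (SE).

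Ear2 (ID 13587, chr14:44102654-44103531) did not follow its neighbours at day 6. It stood at 1.28, 0.974 and 3.02 CPM in untreated replicates 1, 2 and 3, at 0.456, 2.75 and 2.49 CPM at day 2, at 4.80, 18.2 and 11.01 CPM at day 4 and at 108, 72.7 and 114 CPM at day 6. The day 6 libraries lay above every other library, and the day 4 libraries above every untreated and day 2 library. From day 4 to day 6 the log2 fold change of Ear2 was 3.10 ± 0.43, while that of Ear1 was -2.77 ± 0.94 (SE). The ratio of Ear2 to Ear1 in RPKM (CPM per 1000 bases of gene length) was 0.926, 0.748 and 0.599 in untreated, day 2 and day 4 cells and 34.1 at day 6. Counts of these genes are uncertain to some degree, because the Ear1 and Ear2 transcripts are 96.0% identical over their length, and how reads with several matches were counted is not given in the sources used here. Of the 50-base words in each transcript, 71.4% for Ear1, 62.4% for Ear2 and 98.6% for Ear6 occurred in none of the other family transcripts compared.

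Other ribonucleases of the family showed further courses. Of 20 listed genes 14 were found and 6 were tested, of which 3 rose and 1 fell at day 4 and 2 rose and 2 fell at day 6. Rnase2a, a gene of the same subfamily as the Ear genes, stood at 21.8, 31.5 and 30.7 CPM at day 4 against 8.93, 8.21 and 14.7 CPM in untreated cells and 2.13, 6.43 and 2.93 CPM at day 6. It rose at day 4 (log2 fold change 1.40 ± 0.29, edgeR adjusted p = 0.00226) and fell below untreated at day 6 (-1.41 ± 0.35, 0.00337). The 3 day 4 libraries of Rnase2a were within 1.5-fold of each other, unlike those of Ear1 and Ear6. Rnase6, a ribonuclease of macrophages, rose from 0.847 ± 0.414 to 47.3 ± 7.79 CPM at day 4 (log2 fold change 5.77 ± 0.52, edgeR adjusted p = 1.13e-05). Rnh1, the cytosolic inhibitor of these enzymes, rose by 0.97 ± 0.14 at day 4 (edgeR adjusted p = 0.000181), and Rnase10 fell by 2.11 ± 0.29 (0.000136). Rnase2b had no count in untreated and day 2 libraries, 4, 4 and 7 counts at day 4 and 3, 4 and 1 at day 6. Ear10 had counts in 2 libraries, 6 and 4 in day 6 replicates 1 and 3, and Ear14, Ang2, Ang4, Ang5 and Ang6 had none in any library.

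**Figure D1:**
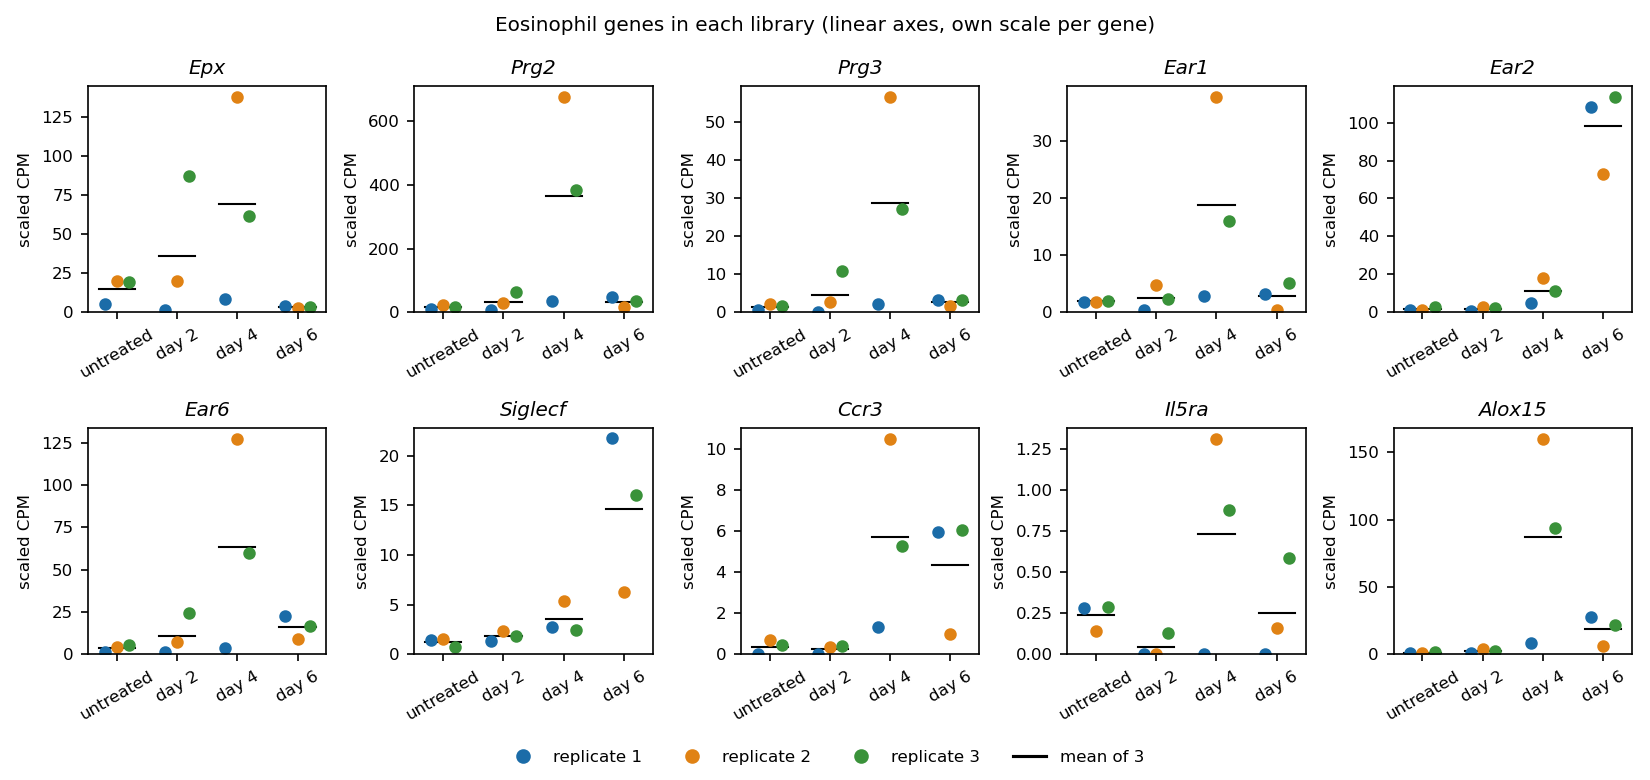
Scaled CPM (linear axis, its own scale for each gene) of the 10 eosinophil genes in each library; points are replicates 1, 2 and 3 of each group and the bar is their mean. Most genes reach their highest value in day 4 replicate 2 with replicate 1 of that day far lower, while Ear2 and Siglecf are highest at day 6.

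Among the receptors, Siglecf (ID 233186, chr7:43351341-43359475), a sialic acid-binding inhibitory lectin of eosinophils, resembled Ear2 more than the other granule genes in its day means. It stood at 1.42, 1.53 and 0.718 CPM in untreated replicates 1, 2 and 3, at 1.37, 2.38 and 1.84 CPM at day 2, at 2.70, 5.39 and 2.495 CPM at day 4 and at 21.8, 6.27 and 16.0 CPM at day 6. All day 6 libraries lay above all others, and all day 4 libraries above the untreated and day 2 ones. The log2 fold change against untreated was 1.51 ± 0.54 at day 4 and 3.55 ± 0.50 at day 6 (SE). It rests on 26 counts in the 3 untreated libraries together and 223 at day 6.

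Ccr3 (ID 12771, chr9:124017825-124031692) encodes the receptor for eotaxins, the chemokines that call eosinophils into tissue. It had 0, 5 and 3 counts in untreated replicates 1, 2 and 3 and 0, 2 and 3 at day 2, then 9, 72 and 36 at day 4 and 28, 6 and 31 at day 6. In CPM that is at most 0.696 before day 4. Day 4 gave 1.35, 10.5 and 5.28 CPM, and day 6 gave 5.97, 0.964 and 6.05 CPM. Every day 4 and day 6 library lay above every untreated and day 2 library. The log2 fold change was 3.86 ± 0.99 at day 4 and 3.42 ± 1.03 at day 6 (SE), and it rests on only 8 counts in the untreated group.

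Il5ra (ID 16192, chr6:106710375-106749037), the interleukin 5-binding chain of the receptor that defines eosinophil precursors, was near the limit of detection. Untreated replicates 1, 2 and 3 had 2, 1 and 2 counts. Day 2 gave 0, 0 and 1 counts, day 4 gave 0, 9 and 6, and day 6 gave 0, 1 and 3. Replicates 2 and 3 of day 4 again held the most counts, and no fold change is given.

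Alox15 (ID 11687, chr11:70344147-70390538) encodes 12/15-lipoxygenase, which oxygenates arachidonic acid and is abundant in eosinophils and some macrophages. It stood at 0.851, 0.835 and 1.72 CPM in untreated replicates 1, 2 and 3, at 0.759, 3.84 and 2.75 CPM at day 2, at 8.55, 160.2 and 93.5 CPM at day 4 and at 27.7, 5.79 and 22.1 CPM at day 6. It had the largest change of the 9 tested members at day 4, 6.25 ± 1.15 on the log2 scale, and all day 4 and day 6 libraries lay above all untreated and day 2 ones. At day 6 the log2 fold change against untreated was 3.98 ± 1.25 (SE), and it was no longer called without day 6 replicate 1 (3.56).

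Of 12 listed lipoxygenase and leukotriene genes 5 were tested, of which 3 rose at day 4 and 4 at day 6, and 0 fell. Lta4h, which makes leukotriene B4, had 842, 883 and 809 CPM in untreated cells and 765, 729.7 and 617 CPM at day 4. Alox5, the 5-lipoxygenase of leukotriene synthesis, rose from 20.5 ± 1.34 to 85.5 ± 22.1 CPM at day 4 (log2 fold change 2.06 ± 0.29, edgeR adjusted p = 0.000203) and to 533 ± 115 CPM at day 6 (4.70 ± 0.31, 2.02e-07). Its partner Alox5ap rose by 1.30 ± 0.12 at day 4 (edgeR adjusted p = 5.63e-06), with 254, 265.5 and 269 CPM in day 4 replicates 1, 2 and 3. Alox12e, named here after its values were seen, had too few counts for a test but 1, 19 and 16 counts at day 4 against at most 3 in any other library. Ltc4s, which makes the cysteinyl leukotrienes that eosinophils release, had at most 3 counts in a library.

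By the edgeR quasi-likelihood test at an adjusted p under 0.05, 0 of the 9 tested genes were called at day 2 (DESeq2 also called 0), where 1.05% of all 12057 tested genes were called higher and 0.406% lower (1.45% either way). Day 4 had 8 of 9 called higher and 0 lower, where 22.1% of all genes were called higher and 20.2% lower (42.4% either way). Day 6 had 4 of 9 called higher (Ear2, Siglecf, Ccr3 and Alox15) and 0 lower, where 35.0% of all were called higher and 32.9% lower (67.9% either way). The genes were chosen on these values, so nothing is read from the counts.

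Between treated days, 5 of 9 were called higher and 0 lower from day 2 to day 4 (Prg2, Ear1, Ear2, Ccr3 and Alox15), where 15.0% of all genes were called higher and 10.2% lower (25.2% either way). Ear2 and Siglecf were called higher from day 4 to day 6, and Epx, Prg2, Prg3, Ear1 and Alox15 lower, where 23.6% of all genes were called higher and 22.6% lower (46.3% either way). Counted by libraries that do not overlap, 0 of 10 genes stood above untreated and 1 below at day 2, as did 12.2% and 12.5% of all tested genes. The 1 below was Il5ra, which was not tested and had 0, 0 and 1 counts against 2, 1 and 2 in untreated cells. Day 4 had 7 of 10 above and 0 below (29.2% and 29.2% of all), and day 6 had 5 above and 1 below (34.3% and 33.9% of all). From day 2 to day 4, 4 of 10 stood above and 0 below (25.2% and 24.9% of all), and from day 4 to day 6, 2 stood above and 1 below (26.6% and 26.5% of all).

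A number of these calls were lost when 1 library was left out. At day 4, 4 of the 9 were called without day 4 replicate 2 (Prg3, Ear1, Ear6 and Siglecf lost the call), and 5 without untreated replicate 1. With only the untreated and day 4 libraries in the fit 4 were called. Siglecf at day 4 lost its call also without untreated replicate 2 or 3, or day 2 replicate 3. The 5 lower calls from day 4 to day 6 came to 0 without day 4 replicate 2 or without day 6 replicate 2. They came to 1 without day 6 replicate 1 or 3 and to 2 without day 4 replicate 3. The calls of Ear2 in 4 comparisons, of Siglecf at day 6, of Ccr3 at day 4 and day 6, and of Prg2 and Alox15 at day 4 held in every alternative that tested them.

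**Figure D2:**
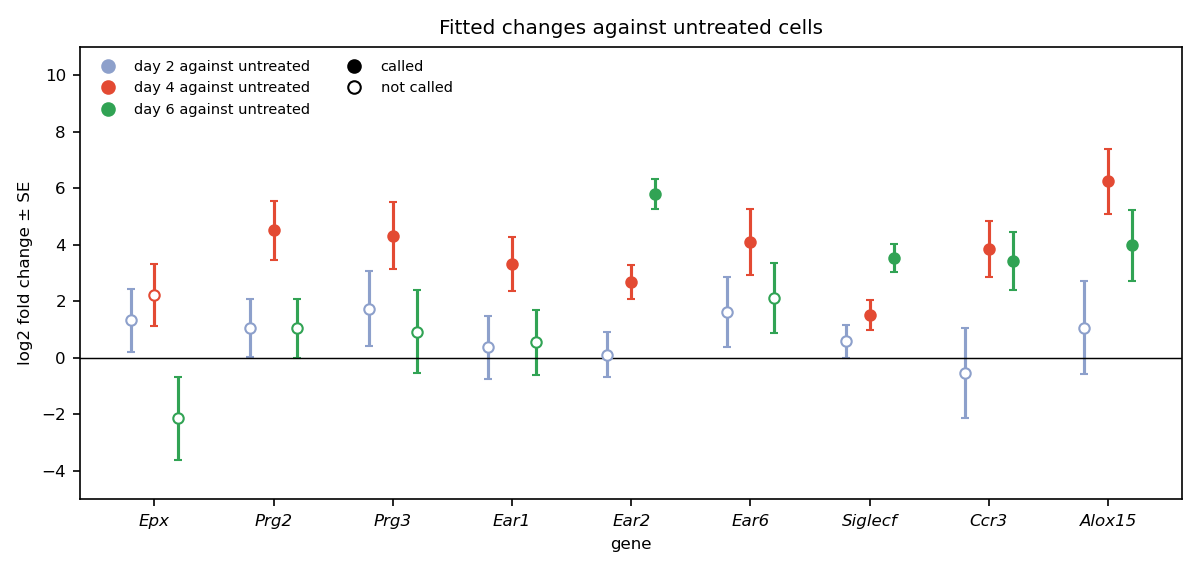
Fitted log2 fold change against untreated cells, with its standard error, of the 9 tested eosinophil genes at days 2, 4 and 6 of Dox; filled points were called at an edgeR adjusted p under 0.05 and open points were not. Changes are highest at day 4 for 7 genes, and at day 6 for Ear2 and Siglecf, with Epx below 0 at day 6.

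The levels within a day moved together. All 10 genes were highest in replicate 2 at day 4, as were 30.7% of all tested genes. All but Siglecf were lowest in day 4 replicate 1, as were 34.6% of all tested genes. That library had 57.6 CPM of the 6 granule genes together against 1054 and 558 CPM in replicates 2 and 3. At day 6, 9 of 10 were lowest in replicate 2, the library that stood apart, as were 42.8% of all tested genes. At day 2 the granule sum was 10.02, 65.3 and 192 CPM. All genes but Il5ra (no count in replicates 1 and 2) were then lowest in replicate 1, as were 32.4% of all tested genes. Outside day 4 the highest replicate was not the same for all genes. In untreated cells 5 genes were highest in replicate 2 and 5 in replicate 3, and at day 2 it was 4 and 6. Day 6 had 5 highest in replicate 1 and 5 in replicate 3. Once the mean of each day was removed from the log2 CPM, the median Pearson r over the 36 pairs of the 9 tested genes was 0.823 in 12 libraries, from 0.314 for Epx with Siglecf to 0.981 for Epx with Prg3. Without the day 4 libraries the median was 0.723. The points share their libraries, scaling and counting error, and agreement was a ground for choosing the genes, so no p is given.

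Siglecf took least part in this agreement. Its median r with the other 8 genes was 0.449, where the medians of the other genes ran from 0.784 for Epx to 0.873 for Prg2. The SD of its deviations was 0.52 on the log2 scale, against 1.53 for Epx, 1.47 for Ear6 and 1.45 for Prg3. Ear2 was also steadier from library to library (0.71) but kept a median r of 0.819. Its r with Ear1 was 0.815 and with Ear6 0.832. With Siglecf the r of Ear2 within days was only 0.348, although the 4 day means of these genes correlated at 0.985. Siglecf and Ear1 had an r of 0.733 within days. Ear2 and Ear1 were highest in the same replicate of each group, whereas Ear2 and Ear6 were so in untreated cells and at day 4 but not at day 2 or day 6.

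**Figure D3:**
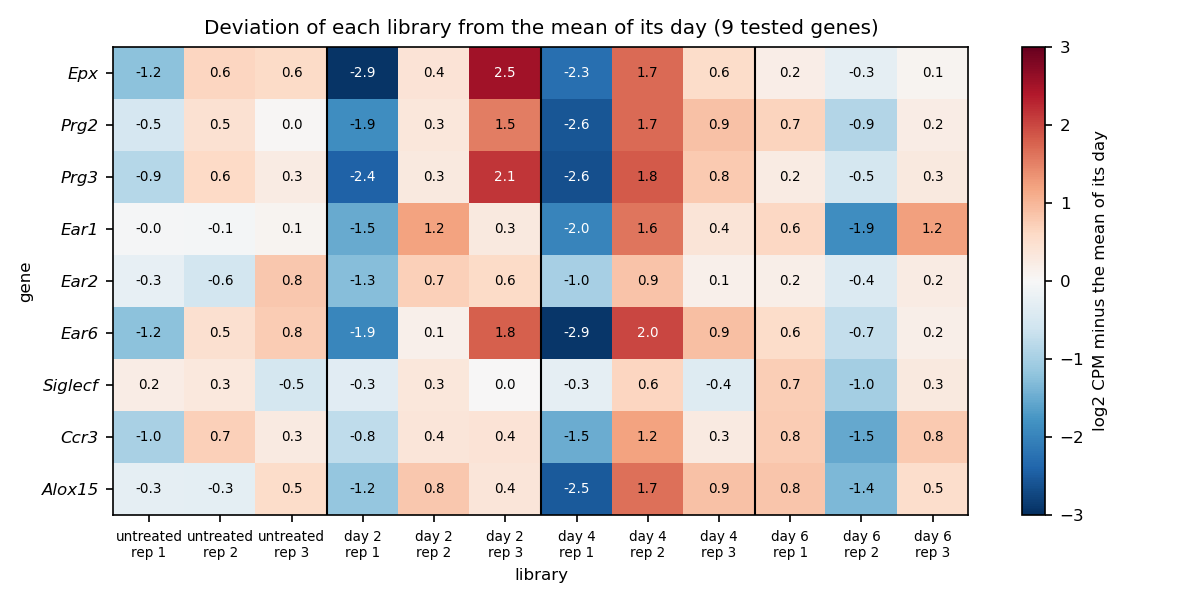
Deviation of log2 CPM from the mean of its day for the 9 tested eosinophil genes (rows) in the 12 libraries (columns); red is above the mean of the day and blue below. Replicate 1 of days 2 and 4 is blue in every row and replicate 2 of day 4 is red in every row.

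PU.1 itself and markers of other cells were compared in the day 4 libraries. Spi1 stood at 244, 267 and 269.5 CPM in day 4 replicates 1, 2 and 3. The sum of 15 monocyte and macrophage markers stood at 10092, 10066 and 10709 CPM, and that of 17 basophil and mast cell markers at 103, 112 and 65.6 CPM. The 15 neutrophil markers summed to 3643, 6343 and 4523 CPM, with replicate 1 lowest and replicate 2 highest as in most of the eosinophil genes. Megakaryocyte and platelet markers had that order too, with sums of 4.95, 10.2 and 6.90 CPM, and T and NK cell markers summed to 90.03, 114 and 51.2 CPM. The part of these cells in the eosinophil gene levels was not tested. Total counts were 6449662, 6728656 and 6664498.

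Basophil and mast cell genes were checked because these cells share several eosinophil genes. Over all 12 libraries their 17 markers summed to 65.6 to 116 CPM up to day 4 and to 227, 125 and 239 CPM at day 6. Tpsab1, Mcpt4 and Enpp3 had no count in any library, Tpsb2 had 1 count in all and Fcer1a at most 1 per library. Of 6 tested markers 1 was lower at day 4, Mcpt8, a basophil protease (log2 fold change -0.86 ± 0.25, edgeR adjusted p = 0.0162, lost without untreated replicate 1 or day 4 replicate 3). At day 6, Ms4a2, Slc18a2 and Hdc were higher and Mcpt8 lower, so that the list did not move one way.

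The late course of Ear2 and Siglecf ran beside neutrophil maturation genes. All 15 neutrophil markers rose at day 6, with a median log2 fold change of 6.26, and their sum was 150811, 71228 and 133484 CPM in day 6 replicates 1, 2 and 3 against 3643 to 6343 CPM at day 4. Replicate 2 of day 6 was lowest for this sum, for Ear2 and for Siglecf. That library was also lowest for every other member but Il5ra, and for 42.8% of all tested genes. It was highest for the monocyte and macrophage sum, at 7938 CPM against 4106 and 4234 CPM. Of the 15 monocyte and macrophage markers, 12 rose and 2 fell at day 6 against untreated cells, with a median log2 fold change of 3.15. From day 4 to day 6, 4 of them rose and 4 fell. The part of these markers in the levels of Ear2 and Siglecf was not tested.

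**Figure D4:**
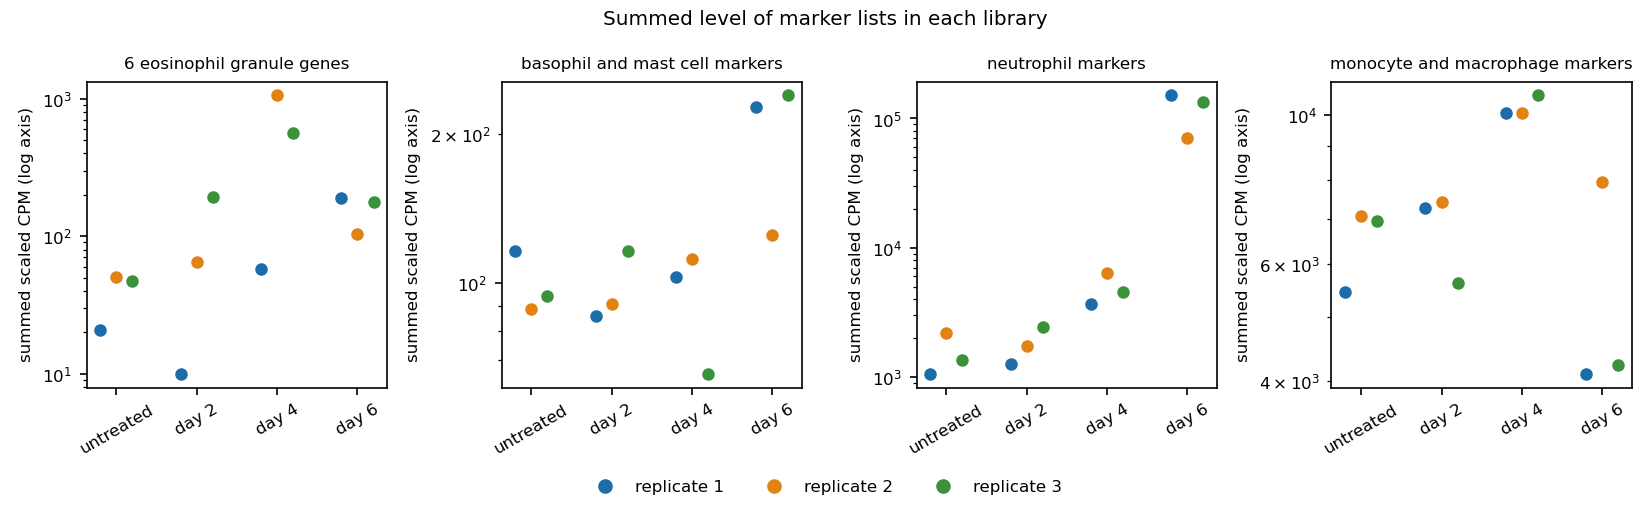
Summed CPM (log axis, its own scale for each list) of the 6 eosinophil granule genes and of 3 marker lists in each library; points are replicates 1, 2 and 3. The granule sum spans 57.6 to 1054 CPM at day 4 while the monocyte and macrophage sum stays between 10066 and 10709 CPM, and the neutrophil sum is highest at day 6.

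Of 8 other Siglecs 4 were tested, and all 4 rose at day 6 with a median log2 fold change of 5.25. Siglece, an inhibitory Siglec of neutrophils and monocytes, stood at 0.749 ± 0.574 CPM in untreated cells, 3.28 ± 1.05 CPM at day 4 and 96.7 ± 20.8 CPM at day 6 (log2 fold change at day 6 6.96 ± 0.34, edgeR adjusted p = 1.34e-08). Cd33 rose from 23.2 ± 6.64 to 350 ± 111 CPM at day 6 (3.92 ± 0.37, edgeR adjusted p = 4.66e-06). Siglec15 had no count.

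Transcription factors of the lineage were counted next. Of 19 listed transcription factors and partners 17 were tested; 6 rose and 2 fell at day 4, and 8 rose and 5 fell at day 6, with median log2 fold changes of -0.04 and 0.28. Gata1, the GATA factor that eosinophil development requires, was too low for a test and was picked after its values were seen. It had 1, 22 and 8 counts in day 4 replicates 1, 2 and 3 and at most 8 in any other library, which is the order of the eosinophil genes. Gata2 fell from 8.38 ± 3.54 to 1.03 ± 0.405 CPM at day 6 (log2 fold change -3.04 ± 0.67, edgeR adjusted p = 0.00151), and Zfpm1, the GATA partner also called FOG-1 and picked after its values were seen, fell by 1.38 ± 0.41 (0.00966). Cebpe, a C/EBP factor needed for the late granules of neutrophils and eosinophils, had a log2 fold change of 0.28 ± 0.33 at day 4 (edgeR adjusted p = 0.52) and rose at day 6 to 520 ± 169 CPM (2.95 ± 0.34, 1.95e-05). Id2, an inhibitor of helix-loop-helix factors, rose from 14.8 ± 4.33 to 146 ± 24.5 CPM at day 6 (edgeR adjusted p = 6.56e-08). Irf8, which favours monocytes, fell from 711 ± 228 to 145 ± 77.3 CPM at day 6 (edgeR adjusted p = 0.000224), and Cebpa fell from 472 ± 113 to 167 ± 18.5 CPM (2.47e-06).

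Interleukin 5 signals through a chain and kinases that it shares with interleukin 3 and GM-CSF. Of 21 genes of this signalling tested, 4 rose at day 2, 13 at day 4 and 16 at day 6, and 3 fell at day 6. The median log2 fold change was 0.87 at day 4 and 1.38 at day 6. The shared beta chain gene Csf2rb, named for its role, rose by 0.44 ± 0.09 at day 4 (edgeR adjusted p = 0.00136), and Csf2rb2, the mouse chain that serves interleukin 3, rose from 22.0 ± 4.73 to 56.5 ± 4.86 CPM already at day 2 (1.36 ± 0.14, 0.000688). The GM-CSF receptor gene Csf2ra rose by 2.59 ± 0.12 at day 4 (edgeR adjusted p = 3.86e-08), and Il3ra fell by 0.88 ± 0.14 at day 6 (0.000105). The kinase gene Syk rose by 1.74 ± 0.10 at day 4 (edgeR adjusted p = 2.55e-07). The day 4 libraries lay close together for Csf2rb2, with 119, 129 and 112 CPM in replicates 1, 2 and 3. They lay further apart for feedback genes of the same list picked after their values were seen: Cish had 14.4, 34.99 and 7.19 CPM and Socs1 had 12.9, 9.77 and 2.20 CPM.

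Of the cytokines and chemokines that act on eosinophils, Il3, Csf2, Il25 and Ccl11 had no count in any library and Il5 had 2 counts in 1 untreated library. Of 16 listed genes 6 were tested, of which 3 rose and 2 fell at day 4 and 2 rose and 3 fell at day 6. Ccl24, eotaxin-2 and a ligand of the Ccr3 protein, stood at 2.13, 4.18 and 6.61 CPM in untreated replicates 1, 2 and 3, at 15.6, 14.3 and 7.60 CPM at day 2, at 10.95, 13.1 and 10.7 CPM at day 4 and at 0.213, 1.45 and 0.586 CPM at day 6. All day 2 libraries lay above the untreated ones, with a log2 fold change of 1.53 ± 0.39 that did not pass the test (edgeR adjusted p = 0.0857). It rose at day 4 (log2 fold change 1.43 ± 0.39, edgeR adjusted p = 0.0117) and fell at day 6 (-2.40 ± 0.58, 0.00275). Ccl6 and Ccl9, chemokines of myeloid cells, rose at day 4 by 2.99 ± 0.38 and 1.76 ± 0.33 (edgeR adjusted p = 0.000133 and 0.00191). Tslp, an alarmin, fell by 1.12 ± 0.30 at day 4 (edgeR adjusted p = 0.01).

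Of 30 other genes of the eosinophil surface and of its secreted effectors, many of which other myeloid cells also express, 24 were tested. At day 4, 16 rose and 2 fell, and at day 6, 18 rose and 0 fell, with median log2 fold changes of 1.36 and 1.73. The paired receptor gene Pirb rose from 3.72 ± 0.879 to 117 ± 25.0 CPM at day 4 (4.97 ± 0.23, edgeR adjusted p = 3.86e-08) and Pira2 from 0.327 ± 0.319 to 25.0 ± 3.25 CPM (6.16 ± 0.58, 1.1e-05). Chil3, the chitinase-like protein Ym1, rose to 1022 ± 371 CPM at day 4 and to 12572 ± 1506 CPM at day 6 (edgeR adjusted p = 0.000128 and 1.12e-06). Receptors nearer to the eosinophil were low, and 3 of them are named after their values were seen. Il1rl1, the interleukin 33 receptor ST2, had 0, 3 and 3 counts in untreated replicates 1, 2 and 3, and 1, 2 and 12 at day 2. Its counts were 0, 10 and 9 at day 4, and 10, 3 and 8 on day 6, so that the highest single count was in day 2 replicate 3. Ptgdr2 and Hrh4 had 1 count each in all 12 libraries.

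The genes whose log2 CPM was most like that of a member over the 12 libraries were sought among 11229 tested genes with symbols, by Pearson r. These r mix differences between days with those within days and are a description. Serpinb2, a protease inhibitor of activated macrophages and granulocytes, was among the 3 nearest for Ear1 (r 0.883), Ear6 (0.805), Ccr3 (0.906) and Alox15 (0.920). It had 3, 69 and 35 counts in day 4 replicates 1, 2 and 3, and 13, 0 and 12 at day 6. Itga2b, a megakaryocyte and progenitor integrin, was nearest to Prg2 (0.841) and had 2.40, 7.44 and 4.11 CPM at day 4. Pparg, a nuclear receptor that responds to oxidised lipids, was the third for Alox15 (0.916) and had 2.70, 6.42 and 4.84 CPM at day 4.

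Genes nearest to Ear2 and Siglecf had their highest group mean at day 6. For Ear2 they were Fam32a (0.986), Serpinb10 (0.985) and Itgb2 (0.984), the shared chain of leukocyte integrins, which rose from 278 CPM in untreated cells to 2460 CPM at day 6. For Siglecf they were Gripap1 (0.987), Vamp5 (0.983) and Gpd2 (0.982). Nearest to Epx was Fbxo22 (0.844), whose group means ran only from 55.5 to 62.8 CPM. Wdr45b was nearest to Alox15 (0.927, group means 49.9 to 57.7 CPM) and Nup88 to Ear6 (0.855, 80.5 to 87.7 CPM). For Ccr3 the nearest was Sc5d (0.909, 55.8 to 80.2 CPM).

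Compared per transcript length, in RPKM, the order of the genes changed between days. At day 4 Prg2 led with 435, followed by Ear6 with 89.3, Alox15 with 36.2, Prg3 with 30.1, Ear1 with 26.5, Epx with 25.8 and Ear2 with 15.8. Ccr3 (1.74), Siglecf (1.44) and Il5ra (0.206) were lowest. At day 6 Ear2 led with 137, followed by Prg2 with 39.7 and Ear6 with 22.6, and Epx stood ninth of 10 with 1.25. Next to the replicate spread, the middle genes of day 4 from Alox15 to Ear2 cannot be ordered, since each had an SD between 9.38 and 31.5 around these means.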

How the data were processed

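RNA of 12 GFP-sorted AML246 bone marrow samples was measured by bulk RNA sequencing, with column-purified RNA and standard Illumina libraries, per the labels' protocols. The deposited files hold raw read counts per Entrez gene with a gene length, made by the authors and not normalised. Tools listed without a role in the submitters' processing notes are featureCounts, CASAVA 1.8.2, limma 3.22.0 and edgeR 3.8.2, and the build is mm10. As for aligner, strand setting and reads with several matches, each is not given in the sources used here. RefSeq (GRCm38) named 25275 of 27179 identifiers, and the 1904 unnamed ones held 0.493% to 1.07% of counts.

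The tests were run with edgeR 4.0.16 and limma 3.58.1 under R 4.3.3. Genes were kept by filterByExpr (12057), TMM factors were 1.02 to 1.15 and, at day 6, 0.737, 0.847 and 0.749, and 4 groups were fitted together (glmQLFit, robust, 8 residual degrees of freedom). Two-sided quasi-likelihood tests were adjusted by Benjamini-Hochberg over all tested genes and called under 0.05. The members and the gene lists were chosen with earlier results of these data known. Beside the members, up to 4 called genes in a list's main direction and 2 in the other, with the largest changes and a group mean of at least 1 CPM, could be named, as could Spi1, close paralogs, list genes with no count, and the 3 genes most like each member. Other named genes are marked as picked after their values were seen or are too low for a test. Correlations used log2 CPM with a prior count of 2. On simulated data for day 6 with 11871 genes, 37.5%, 72%, 96% and 100% of planted 1.5, 2, 4 and 8-fold changes were recovered and 11 unchanged genes were called. Alternatives were DESeq2 1.42.0, other scalings and filters, fits of 2 groups, a replicate block and each library left out.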

Additional observations from a re-analysis of the deposited data

How the results depend on the processing

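Of the member log2 fold changes recomputed under the alternatives, 819 kept their side of the threshold, 66 lost the call and 6 gained one. No called change turned sign. With a library left out, changes that were not called did: at day 2 Epx (down to -0.50), Prg3 (-0.06), Ear1 (-0.37), Ear2 (-0.21) and Ccr3 (up to 0.23), at day 6 Ear1 (-0.22), from day 2 to day 4 Epx (-0.05) and from day 4 to day 6 Ccr3 (0.34). Genes called at day 2 numbered 175 with all 4 groups fitted, 412 with only the 2 groups compared and 412 with DESeq2. Members called at day 4 were 8, or 4 with only the 2 groups compared. From day 2 to day 4 they were 5, or 3 with no filter and 1 with only the 2 groups. From day 4 to day 6 they were 7, or 3 with no filter and 4 with the replicate block. The cause was not tested. With each library left out in turn, genes called ranged from 38 to 603 at day 2 (603 without day 6 replicate 2, 38 without day 2 replicate 2), 3878 to 6143 at day 4, 7626 to 8653 at day 6, 1876 to 4193 from day 2 to day 4 and 4296 to 6853 from day 4 to day 6. Members called then ranged from 0 to 0 at day 2, 4 to 8 at day 4, 3 to 4 at day 6, 3 to 7 from day 2 to day 4 and 2 to 8 from day 4 to day 6. Higher calls were 51.6% of all calls at day 6 by TMM, 37.3% by upper-quartile factors and 25.2% by library totals, which shift the median gene by -0.25 and -0.52, and 52.2%, 41.2% and 39.1% at day 4, with shifts of -0.11 and -0.13. In the same order they were 59.6%, 43.8% and 35.1% from day 2 to day 4 and 51.1%, 34.6% and 17.5% from day 4 to day 6, with shifts of -0.10 and -0.15, and of -0.18 and -0.42. The member calls did not change with the scaling.

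Same-numbered libraries of different groups had residuals that correlated at 0.006 on average over 18 pairs (-0.17 to 0.29). Only 4 of the 12 resembled a same-numbered library most. An average over all genes cannot settle whether same-numbered libraries share a source, so pairing was neither assumed nor excluded. Among the tested members, replicate 1 lay below the mean of its day in every gene at day 2 and day 4. At day 6 it lay above that mean in every tested member. With the replicate block 141 genes were called at day 2, 4931 at day 4, 8066 at day 6, 2797 from day 2 to day 4 and 5431 from day 4 to day 6. Il5ra, at 1 to 15 counts per group, and the untreated and day 2 levels of Ccr3 are limited by depth.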
